A study of Mus musculus with 16 samples.

Results

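The circadian clock genes are 10 genes of mouse spinal cord: the activators Arntl and Clock, the nuclear receptors Rora, Nr1d1 and Nr1d2, the repressors Per1, Per3, Cry1 and Cry2, and the output gene Dbp. They were chosen by name, with their levels in these arrays already known. The platform annotation gives them 13 of the 12422 probe sets that are not controls. Of these, 3 probe sets lay at the floor of measurement on all 16 arrays, 1 of Rora and 2 of Cry1. The remaining 10, 1 for each gene, all passed the filter on dim probe sets, and 6427 probe sets passed it in all.

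In the mammalian clock, the ARNTL and CLOCK proteins bind E-box sequences and switch on the Per, Cry and Nr1d genes, whose protein products then shut this activity down again. A second loop runs through response elements of nuclear receptors, at which ROR proteins such as RORA activate Arntl and the NR1D proteins repress it. Dbp is driven through E-boxes and activates genes with D-boxes, so in most tissues the Arntl transcript peaks at the time of day when Dbp, Nr1d1, Nr1d2 and Per3 are low. Clocks of peripheral tissues, the spinal cord among them, are set by the pacemaker of the hypothalamus, by glucocorticoid hormone, by body temperature and by feeding.

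The series asks how the cord of the spastic mouse differs from that of control mice. The spastic allele is a recessive defect in Glrb, the gene for the glycine receptor's beta subunit, and mice with it show rigidity and tremor. The titles give 6 spastic arrays, from mice of 2 months (2 arrays, female), of 3 months (1 array titled sev, male), of 3+ months (1 array, male) and of 6 months (2 arrays, female, with the letter M in a title that does not explain it). They give 2 B6C3Fe arrays, of the hybrid stock of that name, from males of 1 month, and 8 control arrays, 2 each from females and males of 12 and 9 months. The strain and genotype of the controls, the hour at which tissue was taken, the lighting schedule and the number of animals behind an array are not given in the sources used here. Some titles stand on a pair of arrays, marked a and b, and the mean of each pair was used, so that 5 spastic, 1 B6C3Fe and 4 control samples entered the tests. Whether such samples are separate animals is not stated, so all p-values measure the spread between samples only, and that spread may be partly technical. Age does not overlap between the groups, and age and group cannot be told apart in any of the 3 group comparisons.

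Values are log2 of the authors' intensities, after values under 60.9 (5.93 on the log2 scale) were set to that floor. Levels of different probe sets are not comparable with each other. Glrb measured 9.92 to 11.11 on the spastic arrays, 12.92 and 12.98 on the B6C3Fe arrays, and 12.70 to 13.30 on the control arrays, so it was lowest on the arrays titled spastic. The sex-linked genes did not follow the titles everywhere. Xist, expressed from the inactive X chromosome, measured 10.54 and 10.37 on the 2 spastic arrays titled male, and Eif2s3y of the Y chromosome lay at the floor on all 6 spastic arrays. The titled-male B6C3Fe and control arrays had Xist at 5.93 to 5.97 and Eif2s3y at 8.50 to 9.09. The called clock genes and called list genes are therefore given with and without these 2 samples. Of 3 ratios of a 3-prime to a 5-prime probe set, which rise as RNA is degraded or shortened in labelling, the log2 ratio of Pcx (pyruvate carboxylase) tended to be higher on the spastic arrays. It was 2.00 to 2.98 on the spastic arrays (median 2.37), 1.67 and 1.89 on the B6C3Fe arrays, and 1.31 to 2.72 on the control arrays (median 1.53). Array a of the 9-month female controls had the ratio of 2.72, against 1.31 on array b of the same title. The other ratios did not show the same order of groups. That of Gapdh was -0.67 to -0.10 on the spastic arrays, -0.49 to -0.16 on the B6C3Fe arrays and -0.64 to 0.99 on the control arrays, and that of actin had medians of -0.04, -2.25 and 0.28 on the spastic, B6C3Fe and control arrays. All 6 genes of the Hox list, which mark the position along the cord, were above the floor on every array, and 2 of them were called higher in spastic than in control cord. These were Hoxd10 (0.94, SE 0.29, limma adjusted p = 0.0422) and Hoxb5 (0.41, SE 0.12, limma adjusted p = 0.0382).

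The promoter windows show which members carry the letters of these elements near a start, and 3 sets are printed. The genes set against Arntl in the tests further on were not chosen by these matches. Dbp and Nr1d1, which are among them, had no match of any motif searched. The sequences are from RefSeq on the build GRCm38.p6, run from 250 bases before to 50 bases after an annotated start, and are written 5′ to 3′ on the strand of the gene with matches in capitals. A search of both strands was made for the E-box CACGTG, the D-box TTANNTAA, the nuclear receptor half-site AGGTCA and the cAMP response element TGACGTCA, over 14 start sites of the 10 genes and over all 32851 promoter windows of the table. In the windows of the 10 genes no match overlapped a match of another motif.

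The E-box, through which ARNTL and CLOCK act, was in the windows of Per1 and Cry1, that is in 2 of 14 windows, against 7.15% of all windows. It began 166 bases before the first start of Per1 (chr11:69098699-69098998, plus strand), whose window also holds the half-site as TGACCT, and 60 bases before the start of Cry1 (chr10:85185005-85185304, minus strand).
Per1: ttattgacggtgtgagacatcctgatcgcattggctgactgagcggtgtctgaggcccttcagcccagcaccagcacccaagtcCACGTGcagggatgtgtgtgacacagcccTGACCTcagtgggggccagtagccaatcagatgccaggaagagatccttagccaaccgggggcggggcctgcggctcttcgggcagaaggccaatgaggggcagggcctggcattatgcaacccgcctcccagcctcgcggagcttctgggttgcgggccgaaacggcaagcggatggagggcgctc
Cry1: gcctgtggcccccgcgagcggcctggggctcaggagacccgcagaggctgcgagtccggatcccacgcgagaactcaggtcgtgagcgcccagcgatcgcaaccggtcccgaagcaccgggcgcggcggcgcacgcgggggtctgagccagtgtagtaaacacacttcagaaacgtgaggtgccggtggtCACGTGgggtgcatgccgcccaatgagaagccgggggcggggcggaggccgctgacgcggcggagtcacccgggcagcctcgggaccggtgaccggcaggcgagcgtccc
The D-box, through which DBP acts, stood 2 times in the window of Per3 (chr4:151044616-151044915, minus strand), 205 and 158 bases before the start, both times with the letters TTATGTAA. It was in 1 of 14 windows, against 6% of all windows.
Per3: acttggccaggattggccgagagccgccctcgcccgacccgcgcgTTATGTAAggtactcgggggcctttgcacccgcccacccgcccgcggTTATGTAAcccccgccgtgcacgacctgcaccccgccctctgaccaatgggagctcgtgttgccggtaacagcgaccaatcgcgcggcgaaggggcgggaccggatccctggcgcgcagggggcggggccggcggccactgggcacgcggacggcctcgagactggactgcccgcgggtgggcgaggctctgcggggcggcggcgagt
The half-site, which RORA and the NR1D proteins recognise when AT-rich bases precede it, was in 4 of 14 windows, against 16.3% of all windows. It began 32 bases after the second start of Arntl (chr7:113207261-113207560, plus strand) and 77 bases before the start of Nr1d2 (chr14:18239057-18239356, minus strand). The other 2 windows were the first start of Per1, printed above, and the third start of Clock.
Arntl: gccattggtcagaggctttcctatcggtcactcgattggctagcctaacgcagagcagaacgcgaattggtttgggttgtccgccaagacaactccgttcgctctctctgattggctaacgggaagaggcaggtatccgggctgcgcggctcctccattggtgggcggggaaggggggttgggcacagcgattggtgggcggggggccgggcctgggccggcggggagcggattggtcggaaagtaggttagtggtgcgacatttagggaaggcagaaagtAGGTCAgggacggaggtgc
Nr1d2: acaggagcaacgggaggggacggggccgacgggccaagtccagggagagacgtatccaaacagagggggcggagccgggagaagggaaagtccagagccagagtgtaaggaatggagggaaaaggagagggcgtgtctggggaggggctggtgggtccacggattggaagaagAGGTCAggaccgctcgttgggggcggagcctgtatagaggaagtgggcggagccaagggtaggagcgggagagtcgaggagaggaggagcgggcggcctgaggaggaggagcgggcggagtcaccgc
The cAMP response element was in none of the 14 windows and in 1.79% of all windows. A match is a run of letters and not a site of binding. A window without a match says only that those letters are not in these 300 bases.

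Among the clock genes, Nr1d2, Rora and Clock were lower in spastic than in control cord and Per1 was higher, while the Arntl, Cry2 and Nr1d1 differences were each smaller than their standard error. The 4 genes named first were called, meaning a limma adjusted p under 0.05 over all 6427 probe sets. That is 4 of 10, 1 higher and 3 lower, where the same test called 19.8% of all probe sets (9.83% higher and 9.93% lower). The genes were chosen with this contrast known, so the counts and the differences below are a description and carry no p-value.

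**Figure D1:**
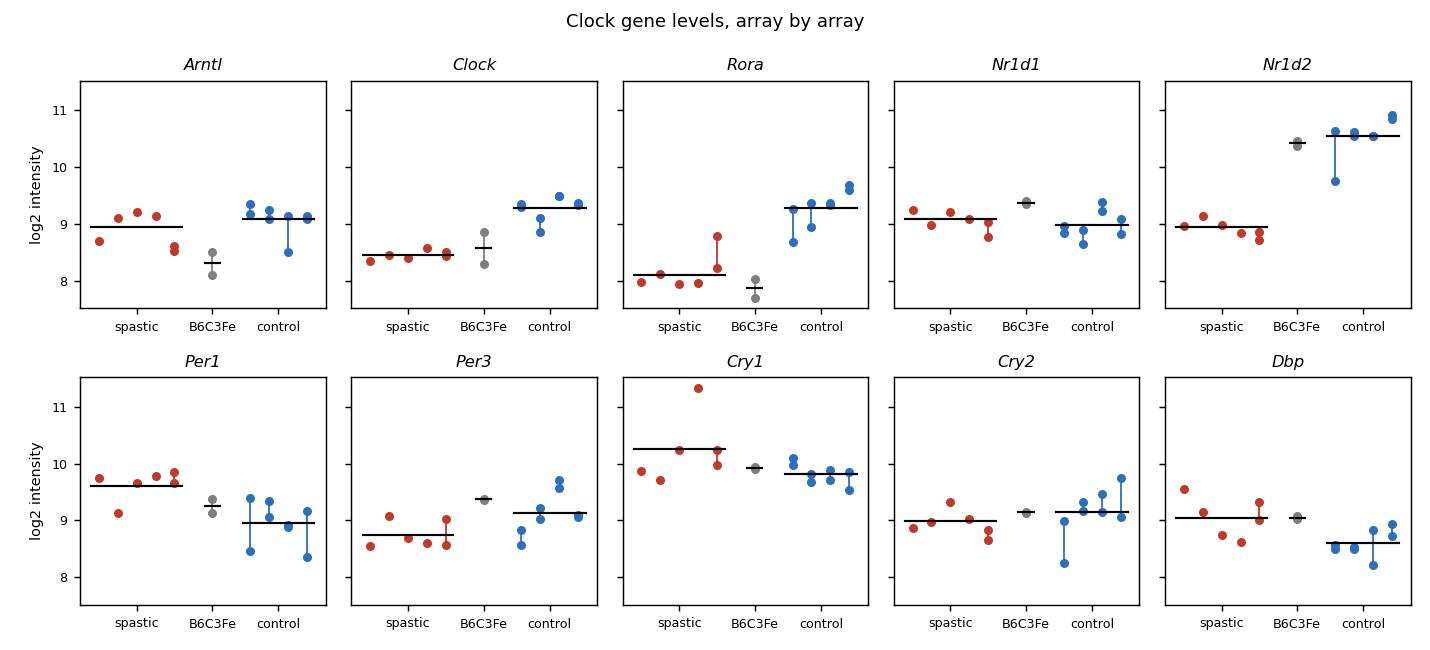
Log2 intensity of the 10 clock genes on each of the 16 arrays. Points are arrays, a vertical line joins arrays of one title, columns within a group are titled samples, and the horizontal bar is the mean of the samples of a group. Spastic arrays lie below every control array for Nr1d2 and Clock, and for Rora all but array a of the 6-month sample do.

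Nr1d2 encodes REV-ERB beta, a repressor at the nuclear receptor elements of Arntl. Its level was 8.71 at the lowest, 8.92 at the median and 9.14 at the highest of the 6 spastic arrays, 10.38 and 10.46 on the B6C3Fe arrays, and 9.76 at the lowest, 10.58 at the median and 10.93 at the highest of the 8 control arrays. All spastic arrays lay below all arrays of both other groups. The sample means were 8.94 ± 0.14 in spastic cord (SD, n = 5), 10.42 in B6C3Fe (1 sample) and 10.55 ± 0.28 in control cord (SD, n = 4). The fitted difference, adjusted for titled sex, was -1.60 (SE 0.14) between spastic and control cord, a 3.02-fold lower level. Only 0.638% of the tested probe sets had a difference as low or lower. The lowest control value, 9.76, was that of array a of the 9-month females, whose partner array b measured 10.63. This is the array with the high Pcx ratio, and the highest spastic array, at 9.14, was still below it. Once the Pcx ratio entered the fit, the Nr1d2 difference was -1.31 and still called, as 1 of 9 probe sets that were.

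Nr1d1, the close relative of Nr1d2 that encodes REV-ERB alpha, did not share this pattern. It measured 8.77 at the lowest, 9.06 at the median and 9.25 at the highest of the spastic arrays, 9.41 and 9.35 on the B6C3Fe arrays, and 8.65 at the lowest, 8.93 at the median and 9.39 at the highest of the control arrays. Spastic and control arrays overlapped, and the fitted difference was 0.09 (SE 0.15; 95% interval -0.23 to 0.42). Whether the Nr1d1 and Nr1d2 differences differ from each other was not tested.

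Rora encodes an activator that competes with the NR1D proteins for the same elements. Its level was 7.95 at the lowest, 8.05 at the median and 8.79 at the highest of the spastic arrays, 8.04 and 7.70 on the B6C3Fe arrays, and 8.68 at the lowest, 9.35 at the median and 9.69 at the highest of the control arrays. The spastic arrays lay below the control arrays except for array a of the 6-month sample at 8.79, which was above array a of the 9-month females at 8.68. B6C3Fe array a lay within the spastic range and array b below it. Sample means were 8.11 ± 0.24 in spastic cord (SD, n = 5) and 9.28 ± 0.29 in control cord (SD, n = 4), and the fitted difference was -1.18 (SE 0.19).

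Clock, the DNA-binding partner of ARNTL, had the smallest spread of the 10 genes among the spastic samples. Its level was 8.35 at the lowest, 8.44 at the median and 8.58 at the highest of the spastic arrays, 8.30 and 8.85 on the B6C3Fe arrays, and 8.85 at the lowest, 9.35 at the median and 9.49 at the highest of the control arrays. No spastic array reached the control range, and the 2 B6C3Fe arrays straddled the spastic range. Sample means were 8.45 ± 0.08 in spastic cord (SD, n = 5) and 9.29 ± 0.22 in control cord (SD, n = 4), with a fitted difference of -0.84 (SE 0.14), or 1.80-fold lower.

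Arntl, which encodes BMAL1, had levels of 8.53 at the lowest, 8.90 at the median and 9.21 at the highest of the spastic arrays, 8.51 and 8.11 on the B6C3Fe arrays, and 8.50 at the lowest, 9.14 at the median and 9.35 at the highest of the control arrays. Spastic and control arrays covered nearly the same range. The fitted difference between them was -0.12 (SE 0.16; 95% interval -0.47 to 0.23). Both B6C3Fe arrays lay below all 6 spastic arrays. Within the spastic group the samples fell into a lower pair, 1 of the 2-month samples at 8.70 and the 6-month sample at 8.62 and 8.53, and a higher set of 9.10 to 9.21.

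Per1, a repressor whose transcription also answers directly to cAMP signalling and to glucocorticoid hormone, was 9.13 at the lowest, 9.70 at the median and 9.86 at the highest of the spastic arrays, 9.14 and 9.37 on the B6C3Fe arrays, and 8.35 at the lowest, 8.99 at the median and 9.40 at the highest of the control arrays. Of the spastic arrays, only the second 2-month sample, at 9.13, fell within the control range. The means were 9.61 ± 0.28 in spastic cord (SD, n = 5) and 8.95 ± 0.19 in control cord (SD, n = 4), and the fitted difference was 0.68 (SE 0.16), or 1.60-fold higher. Arrays of one title disagreed widely: the 9-month female controls had 9.40 on array a and 8.47 on array b, and the 12-month male controls 8.35 on array a and 9.17 on array b.

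Per3, the member with D-boxes in its promoter window, measured 8.56 at the lowest, 8.65 at the median and 9.07 at the highest of the spastic arrays, 9.38 and 9.37 on the B6C3Fe arrays, and 8.56 at the lowest, 9.08 at the median and 9.71 at the highest of the control arrays. Of the spastic arrays, 2 lay just below the lowest control array, and the other 4 were in the lower part of the control range. The fitted difference was -0.40 (SE 0.19) and was not called.

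The cryptochromes Cry1 and Cry2, repressors that act together with the PER proteins, were not called either. Cry1 was 9.71 at the lowest, 10.11 at the median and 11.34 at the highest of the spastic arrays, 9.95 and 9.90 on the B6C3Fe arrays, and 9.54 at the lowest, 9.83 at the median and 10.10 at the highest of the control arrays. The value of 11.34 belongs to the 3+ month sample, and the next spastic array was at 10.24. The fitted Cry1 difference was 0.48 (SE 0.25). All Cry1 values rest on 1 probe set, since the other 2 of the gene lay at the floor on all 16 arrays. Cry2 was 8.66 at the lowest, 8.92 at the median and 9.32 at the highest of the spastic arrays, 9.13 and 9.15 on the B6C3Fe arrays, and 8.24 at the lowest, 9.15 at the median and 9.75 at the highest of the control arrays. The control range of Cry2 held all spastic arrays, and the fitted difference was -0.12 (SE 0.16).

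Dbp is the output gene whose protein acts through D-boxes. Its level was 8.62 at the lowest, 9.08 at the median and 9.56 at the highest of the spastic arrays. On the B6C3Fe arrays it was 9.07 and 9.02. The control arrays had 8.22 at the lowest, 8.55 at the median and 8.94 at the highest. Spastic and control arrays overlapped between 8.62 and 8.94, and the fitted difference was 0.42 (SE 0.18), not called. Dbp was called after quantile normalization (0.56) and with every array as its own replicate (0.44). The B6C3Fe arrays were above every control array and inside the spastic range.

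**Figure D2:**
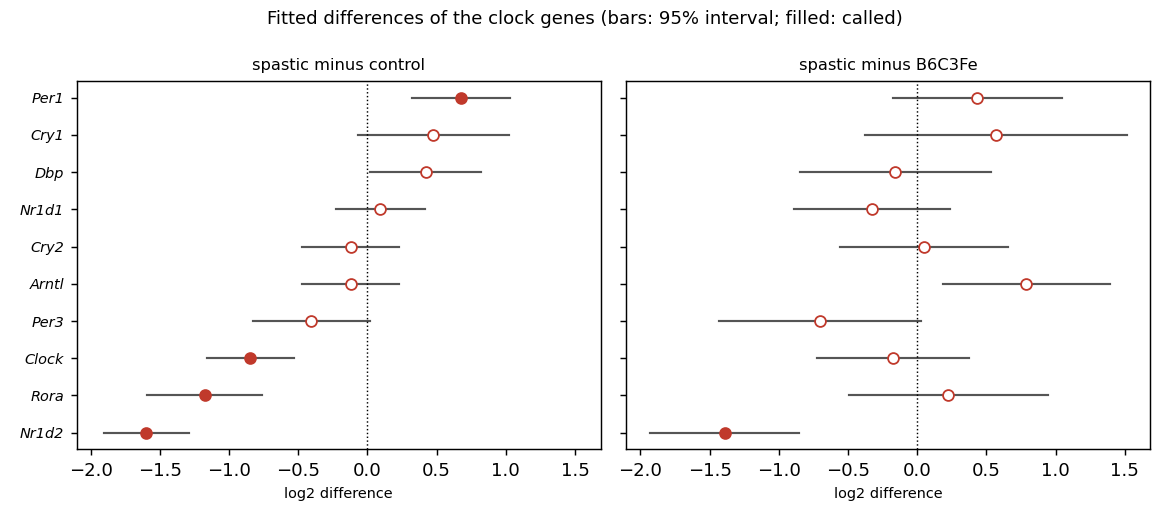
Fitted log2 differences of the 10 clock genes for spastic minus control (left) and spastic minus B6C3Fe (right). Points are limma estimates adjusted for titled sex, bars are 95% intervals, and filled points are genes called over all 6427 probe sets. Nr1d2 lies far to the left in both panels, at -1.60 and -1.39, while Rora and Clock are called in the first panel and lie at 0.23 and -0.17 in the second.

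The calls depended on which samples and terms were in the fit, apart from that of Nr1d2. Without the 2 spastic samples titled male, Nr1d2 (-1.41) and Clock (-0.99) were called, and Rora (-0.95) and Per1 (0.63) were not. With B6C3Fe counted as a control and log2 of age in the fit, Nr1d2 (-1.52) was called, and Clock (-0.50), Rora (-0.44) and Per1 (0.59) were not. With the Pcx ratio in the fit, Clock (-1.02), Rora (-1.15) and Per1 (0.51) were not called. Under all 27 alternatives the Nr1d2 difference lay between -1.72 and -1.31 and was called, though in the weakest case only just. The alternatives reuse samples and a contrast known when the gene was chosen, so this too is a description. Arrays of Nr1d2 and Clock did not overlap between spastic and control cord, which held for 8.01% of all probe sets (3.69% higher and 4.33% lower in spastic cord).

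Other cell types moved with the groups. The 6 endothelial markers summed to an intensity of 4748 to 6460 on the spastic arrays, 2011 to 2380 on the B6C3Fe arrays and 2135 to 3215 on the control arrays, and all 6 were above the floor on every array. Of these 6 markers, 5 were called higher in spastic than in control cord. In bulk RNA, a change in the number of cells of a type and a change in RNA per cell cannot be told apart. Summed intensities of the other cord cell types overlapped between spastic and control arrays: 35466 to 47784 against 37357 to 49916 for 5 neuronal markers, 25232 to 53289 against 33553 to 52139 for 5 astrocyte markers, 33865 to 61560 against 36063 to 53121 for 5 oligodendrocyte markers, and 7104 to 12246 against 10801 to 13614 for 7 microglial markers. Of those tested, 2 neuronal, 2 astrocyte and 2 microglial markers were called lower in spastic cord and 0 oligodendrocyte markers were called. A sum mostly follows its brightest genes and can hide a lower level of a dimmer one. Sample means of Syt1 were 6.68 in spastic and 9.55 in control cord, and those of Nefl 11.39 and 12.50. For Snap25 they were 14.13 and 14.24, and for Stmn2 12.76 and 12.73. Of 7 skeletal muscle markers, 2 were called lower in spastic cord, Myh4 (-3.44, SE 0.44, limma adjusted p = 0.00142) and Actn3 (-0.80, SE 0.20, limma adjusted p = 0.0174). A further Myh4 probe set, not tested, was not lower, with sample means of 8.38 in spastic and 8.21 in control cord. That of Actn3 was lower, at 6.66 against 8.79. The part of cell composition, of cord position and of muscle or pituitary RNA in the clock gene differences was not tested.

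Set against the B6C3Fe sample, which shares the spastic arrays with the comparison above, 1 of the 10 genes was called in spastic cord, where the test called 2.05% of all probe sets (1.42% higher and 0.638% lower). It was Nr1d2, with a fitted difference of -1.39 (SE 0.24), or 2.62-fold lower. The other differences lay between -0.70 (SE 0.33) for Per3 and 0.79 (SE 0.28) for Arntl. Those of Clock (-0.17, SE 0.25) and Rora (0.23, SE 0.33), both called against the controls, were smaller than their standard errors. Spastic and B6C3Fe arrays did not overlap for Nr1d1, Nr1d2 and Per3 (all spastic arrays lower) and for Arntl (all higher), which held for 32.8% of all probe sets (15.1% higher and 17.7% lower). B6C3Fe has 1 sample and was assumed to vary like the other groups. The Nr1d2 call was lost without the 2 spastic samples titled male (-1.09), with the Pcx ratio (-1.09), with only arrays of the letter a (-1.29), and when the 9-month male control (-1.38), the sev sample (-1.37) or the 3+ month sample (-1.28) was left out.

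Between B6C3Fe and control cord none of the 10 genes was called, where 0.389% of all probe sets were (0.0778% higher and 0.311% lower). The lowest differences were those of Rora (-1.40, SE 0.33), Arntl (-0.91, SE 0.28) and Clock (-0.67, SE 0.25), and the highest that of Dbp (0.58, SE 0.31). With every array as its own replicate, Rora, Arntl and Clock were called. B6C3Fe and control arrays did not overlap for Clock and Rora (both lower in B6C3Fe) and Dbp (higher), against 23.3% of all probe sets (11% higher and 12.4% lower). For Clock the arrays almost met, at 8.853 on B6C3Fe array b and 8.855 on array b of the 9-month male controls. Nr1d2 stood at -0.20 (SE 0.24) in this comparison, so the spastic samples were the ones that stood apart for Nr1d2, and the control samples for Rora.

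Age within the controls and titled sex were not used to choose the genes and were tested. Between 12 and 9 months, limma called 0 of 10 clock genes and 0% of all probe sets, with 346 probe sets at an unadjusted p under 0.05. The clock gene differences ran from -0.25 (Arntl, SE 0.23, adjusted p = 0.940) to 0.45 (Per3, SE 0.26, adjusted p = 0.906), and arrays of the 2 ages overlapped for all 10 genes, where 7.38% of all probe sets did not overlap (3.63% higher and 3.75% lower at 12 months). Per3, Rora (0.44, SE 0.26), Cry2 (0.43, SE 0.21) and Nr1d2 (0.33, SE 0.19) were on the side of higher levels at 12 months, each with an adjusted p of 0.906. Between samples titled female and male, limma called 0 of 10 clock genes and 0% of all probe sets, with 389 at an unadjusted p under 0.05. Differences ran from -0.39 (Cry1, SE 0.25, adjusted p = 0.806) to 0.26 (Dbp, SE 0.18, adjusted p = 0.806). The 95% interval reached from -0.10 to 0.76 for Nr1d2 by age and from -0.44 to 0.17 by titled sex. The titled sex of 2 spastic samples goes against their sex-linked genes. Without those 2 samples, 3 probe sets were called between the sexes and still 0 clock genes.

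Arrays that share a title show how far a clock gene can differ within 1 titled sample. The median absolute difference between arrays a and b over the 10 genes was 0.07 to 0.23 in the 6 titles, against 0.15 to 0.28 over all tested probe sets. The largest was 0.94, for Per1 in the 9-month females. The next largest were those of Nr1d2 at -0.88 in the same title and of Per1 at -0.82 in the 12-month males, array a minus array b. In the 12-month females, Arntl differed by 0.63 and Dbp by 0.61, both higher on array a. The spastic minus control differences of Nr1d2, Rora and Clock were larger than every such difference of the same gene, and that of Per1 was not.

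A common clock phase that differed from sample to sample would put Arntl opposite the genes of the other phase. This was examined after each group's mean was removed, over the 5 spastic and 4 control samples, with all 2880 rearrangements of Arntl within the groups, so that the smallest p the test can give is 0.000347. Of 5 relations, 0 passed after Benjamini-Hochberg adjustment. The hour of collection is not given, and samples taken at the same hour need not show such a relation. With 9 samples the test therefore cannot tell a phase shared by all samples from no common phase. Dbp had the lowest r, -0.58 (rho = -0.65, exact permutation p = 0.187 for r and 0.118 for rho, adjusted p = 0.849 and 0.589), and 6.24% of all tested probe sets had an r with Arntl as low or lower. Per3 had r = -0.34 (rho = -0.40, exact permutation p = 0.340 and 0.277, adjusted p = 0.849 and 0.693). Nr1d1 had r = -0.23 (rho = 0.02, exact permutation p = 0.521 and 0.982, adjusted p = 0.855 and 0.982). Per1 had r = -0.21 (rho = 0.03, exact permutation p = 0.738 and 0.950, adjusted p = 0.855 and 0.982). Nr1d2 had r = 0.06 (rho = 0.13, exact permutation p = 0.855 and 0.744, adjusted p = 0.855 and 0.982).

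**Figure D3:**
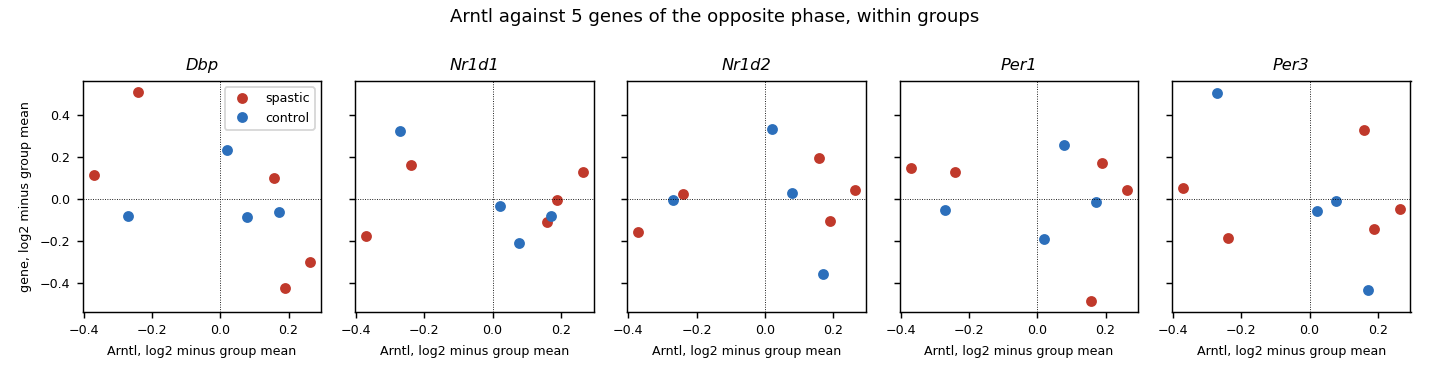
Log2 level of Arntl minus its group mean (horizontal) against that of 5 genes (vertical) in the 5 spastic and 4 control samples. The Dbp panel has the most negative slope, with r = -0.58, and no panel passed the exact permutation test.

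In the spastic samples Arntl lay -0.37 and -0.24 from its group mean in the 6-month sample and the first 2-month sample, where Dbp lay 0.12 and 0.51 above its own. In the sev sample and the 3+ month sample Arntl lay 0.26 and 0.19 above its mean, and the centred values of Dbp were -0.30 and -0.43. The second 2-month sample had both above the mean, at 0.16 for Arntl and 0.10 for Dbp. Arntl and Dbp lay on opposite sides of their group means in 4 of the 5 spastic and 2 of the 4 control samples. Without the 2 samples farthest from the median of Arntl, the 6-month spastic sample and the 12-month female control, r was -0.88 for Dbp, -0.41 for Nr1d1, -0.24 for Nr1d2, -0.17 for Per1 and 0.14 for Per3 (n = 7). The signs of Nr1d2 and Per3 changed with those samples. Under 15 alternatives 0 of the 5 relations passed.

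An axis, labelled evening genes minus Arntl in its plot, was formed for each array from the mean centred level of Dbp, Nr1d1, Nr1d2, Per1 and Per3 minus the centred level of Arntl, so that a high value means a high level of these 5 genes relative to Arntl. It was 0.21 and -0.31 on the 2-month spastic arrays, -0.45 on the sev array, -0.45 on the 3+ month array, and 0.21 on each of the 6-month arrays. The B6C3Fe arrays were at 0.67 and 1.10. The control arrays ran from -0.63 on array a of the 9-month females to 0.51 on array b of the 12-month females, whose partner array a was at 0.01. Spastic arrays lay within the control range on this axis, and the B6C3Fe arrays lay above both groups. The mean of the 5 genes can hide opposite changes. Their fitted spastic minus control differences were -1.60 (Nr1d2), -0.40 (Per3), 0.09 (Nr1d1), 0.42 (Dbp) and 0.68 (Per1). On the B6C3Fe arrays centred Arntl was -0.41 and -0.81, and the mean of the 5 genes was 0.26 and 0.30. Since Nr1d2 is 1 of the 5 genes and was known to be low in spastic cord, the position of the spastic arrays is a description only.

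**Figure D4:**
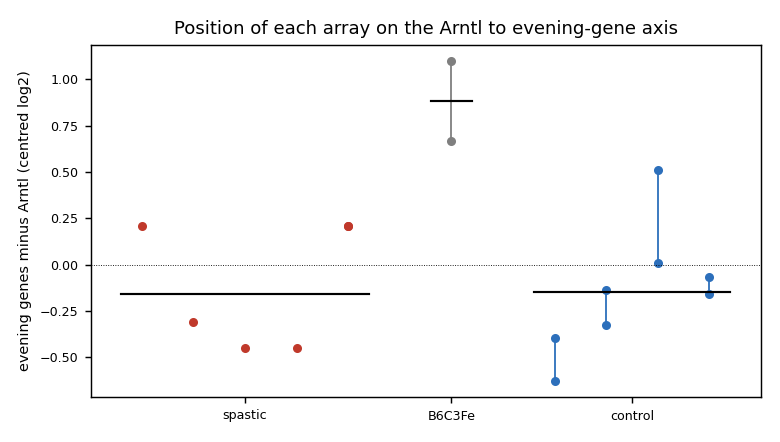
Mean centred log2 level of Dbp, Nr1d1, Nr1d2, Per1 and Per3 minus centred Arntl, array by array. Points are arrays, lines join arrays of one title, and bars are means of the samples. The 6 spastic arrays run from -0.45 to 0.21 and the 8 control arrays from -0.63 to 0.51, with the B6C3Fe arrays at 0.67 and 1.10.

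Pairs of members that share a direction of regulation did not move together throughout. Over the same 9 group-centred samples, given as a description, r was 0.10 for Nr1d1 with Nr1d2, -0.43 for Per1 with Per3, -0.04 for Cry1 with Cry2 and -0.16 for Clock with Arntl. The highest r of all member pairs was 0.76, between Nr1d2 and Cry2, and the lowest was -0.73, between Cry1 and Dbp. Both Nr1d2 and Cry2 were lower on array a than on array b of the 9-month females, at -0.88 and -0.74. The genes whose centred levels were most like those of Arntl over the 9 samples were Gm10046 (r = 0.94), Wdr5 (0.93) and Tprgl (0.92), and the most opposite were Ift27 (-0.94), Lss (-0.93) and Fbxl5 (-0.92). For Dbp the most alike were Idua (r = 0.96), Lpar1 (0.95) and Gpr137b-ps (0.95), and the most opposite Pnpla2 (-0.95), Mta2 (-0.94) and Cxcl14 (-0.94). These are the extremes of 5693 genes over 9 samples, and no other clock gene was among them.

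Of 16 further clock partners and regulators, 9 had a probe set and 7 were tested. Between spastic and control cord 0 of the 7 were called, with a median difference of 0.01 beside -0.02 over all probe sets. The smallest p-values were those of Csnk1d (0.20, SE 0.10, limma adjusted p = 0.170) and Csnk1a1 (-0.22, SE 0.13, limma adjusted p = 0.242), casein kinases that phosphorylate the PER proteins, and of Timeless (0.21, SE 0.17, limma adjusted p = 0.414). Npas2, which can replace Clock as the partner of Arntl, was listed at the floor on all arrays. Per2 stayed under the filter, at 6.95 to 7.83 on the spastic arrays, 7.07 and 7.38 on the B6C3Fe arrays, and 6.99 to 8.05 on the control arrays.

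Of 10 genes known as outputs of the clock, 8 were tested, 1 rose and 2 fell in spastic cord relative to control cord, and 5 were not called, where 19.8% of all probe sets were called (9.83% higher and 9.93% lower). The median difference was 0.08, beside -0.02 over all probe sets. Usp2, a ubiquitin protease with strong daily rhythms in many tissues, measured 9.77 to 10.66 on the spastic arrays, 10.57 and 10.86 on the B6C3Fe arrays, and 9.42 to 9.92 on the control arrays. It rose by 0.72 (SE 0.16, limma adjusted p = 0.0111), with 1 spastic array inside the control range, and the B6C3Fe arrays were as high as the highest spastic ones. The Usp2 call was lost without the 2 spastic samples titled male (0.54, limma adjusted p = 0.172), with the Pcx ratio (0.43, limma adjusted p = 0.347), with B6C3Fe among the controls (0.56, limma adjusted p = 0.0858) and with age added to that fit (0.36, limma adjusted p = 0.305), and with arrays of the letter a only (0.62, limma adjusted p = 0.0510). A second Usp2 probe set, not tested, overlapped between the groups, at 9.32 to 9.69 on the spastic and 9.10 to 9.69 on the control arrays. Nampt, the rate-limiting enzyme of NAD salvage, measured 7.94 to 8.38 on the spastic arrays, 9.14 and 8.86 on the B6C3Fe arrays, and 8.30 to 9.27 on the control arrays. It fell by 0.78 (SE 0.16, limma adjusted p = 0.00721), and the overlap was with array a of the 9-month females. The Nampt call was lost without the samples titled male (-0.80, limma adjusted p = 0.0674), with the Pcx ratio (-0.60, limma adjusted p = 0.219) and with arrays of the letter a only (-0.67, limma adjusted p = 0.0520). Wee1, a cell cycle kinase driven through E-boxes, fell by 0.40 (SE 0.13, limma adjusted p = 0.0474), a call lost when any of 9 samples was left out, and also without both samples titled male (-0.44, limma adjusted p = 0.172).

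The genes induced by glucocorticoid hormone, which acts directly on Per1, included 3 that rose in spastic relative to control cord. Of 12 listed, 10 were tested, 3 rose, 0 fell and 7 were not called, against 19.8% of all probe sets called and 9.83% called higher. The median difference was 0.49, beside -0.02 over all probe sets. Fkbp5, a co-chaperone of the glucocorticoid receptor, was 10.36 and 10.33 in the 2-month spastic samples, 11.84 in the sev sample, 11.75 in the 3+ month sample, and 10.76 and 10.71 on the 6-month arrays. It was 10.99 and 11.15 on the B6C3Fe arrays and 9.24 to 10.22 on the control arrays. Every spastic array lay above every control array, with a fitted difference of 1.27 (SE 0.23, limma adjusted p = 0.00450). Without the 2 spastic samples titled male, which are the 2 highest, the difference was 0.76 and no longer called (limma adjusted p = 0.0834). Nor was it called with B6C3Fe counted as a control and log2 of age in the fit (0.90, limma adjusted p = 0.0549). The same held with the Pcx ratio (0.73, limma adjusted p = 0.232). Nfkbia, the inhibitor of NF-kappa-B, rose by 0.69 (SE 0.16, limma adjusted p = 0.0126), and Ddit4, an inhibitor of mTORC1, by 0.93 (SE 0.25, limma adjusted p = 0.0234). Both of these calls were lost too. Without the samples titled male Nfkbia was at 0.41 (limma adjusted p = 0.215) and Ddit4 at 0.67 (limma adjusted p = 0.241). With the Pcx ratio Nfkbia was at 0.53 (limma adjusted p = 0.285) and Ddit4 at 0.83 (limma adjusted p = 0.300). With B6C3Fe counted as a control and log2 of age in the fit, Ddit4 was at 0.70 (limma adjusted p = 0.115). Zbtb16 (1.16, SE 0.38, limma adjusted p = 0.0527) and Sgk1 (1.12, SE 0.46, limma adjusted p = 0.108) were not called. Sample means of Mt1 (13.39 against 13.62), Mt2 (13.61 against 13.71) and Tsc22d3 (7.08 against 7.76, under the filter) were lower in spastic than in control cord. Those of Klf9 (11.59 against 11.50), Errfi1 (11.32 against 11.04), Angptl4 (8.72 against 8.67) and Sult1a1 (6.95 against 6.43, under the filter) were higher. Among probe sets not tested, those of Klf9 (7.55 against 8.49) and Errfi1 (9.64 against 10.21) were lower and that of Nfkbia (10.07 against 9.28) higher. In the sev and 3+ month samples, where Fkbp5 was highest, Per1 measured 9.66 and 9.79, within the range of the other spastic arrays.

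Within the controls, some genes of this list separated the 2 ages array by array. Sgk1, a kinase induced by the hormone, was 10.24 to 10.42 on the 4 control arrays of 12 months and 12.07 to 12.31 on the 4 of 9 months, with 11.49 to 13.10 on the spastic arrays and 12.53 and 12.22 on the B6C3Fe arrays. The fitted difference of Sgk1 between 12 and 9 months was -1.89 (SE 0.39, limma adjusted p = 0.724), and that of Ddit4 was -0.98 (SE 0.23, limma adjusted p = 0.762), so neither passed, although the arrays of the 2 ages did not overlap for either gene. Arrays of the 2 ages also did not overlap for 7.38% of all probe sets.

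Of 8 temperature-responsive genes, 7 were tested, 1 rose and 1 fell in spastic relative to control cord, and 5 were not called, against 19.8% of all probe sets called. The median difference was -0.16, beside -0.02 over all probe sets. Cirbp, an RNA-binding protein induced by mild cold, rose by 0.67 (SE 0.16, limma adjusted p = 0.0149), at 10.88 to 11.75 on the spastic arrays, 11.01 and 10.47 on the B6C3Fe arrays, and 10.47 to 10.99 on the control arrays. Hspa8, a constitutive heat shock protein, fell by 0.47 (SE 0.12, limma adjusted p = 0.0179). Without the samples titled male neither was called, with Cirbp at 0.37 (limma adjusted p = 0.247) and Hspa8 at -0.58 (limma adjusted p = 0.0635), nor with the Pcx ratio, with Cirbp at 0.52 (limma adjusted p = 0.300) and Hspa8 at -0.61 (limma adjusted p = 0.120). Cirbp was also not called without the filter on dim probe sets (limma adjusted p = 0.0575). Hspa8 was not called with B6C3Fe counted as a control and log2 of age in the fit (-0.33, limma adjusted p = 0.122). Hspa1b, an inducible heat shock protein, was spread over a wide range among the controls, at 7.25 to 7.90 on the arrays of 12 months and 10.38 to 11.04 on those of 9 months. The spastic arrays, at 7.92 to 9.50, and the B6C3Fe arrays, at 8.80 and 9.01, lay between these ages. The difference of Hspa1b between 12 and 9 months was -2.94 (SE 0.51, limma adjusted p = 0.569) and was not called. Dnajb1, another heat shock gene, differed by -0.87 (SE 0.20, limma adjusted p = 0.762).

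**Figure D5:**
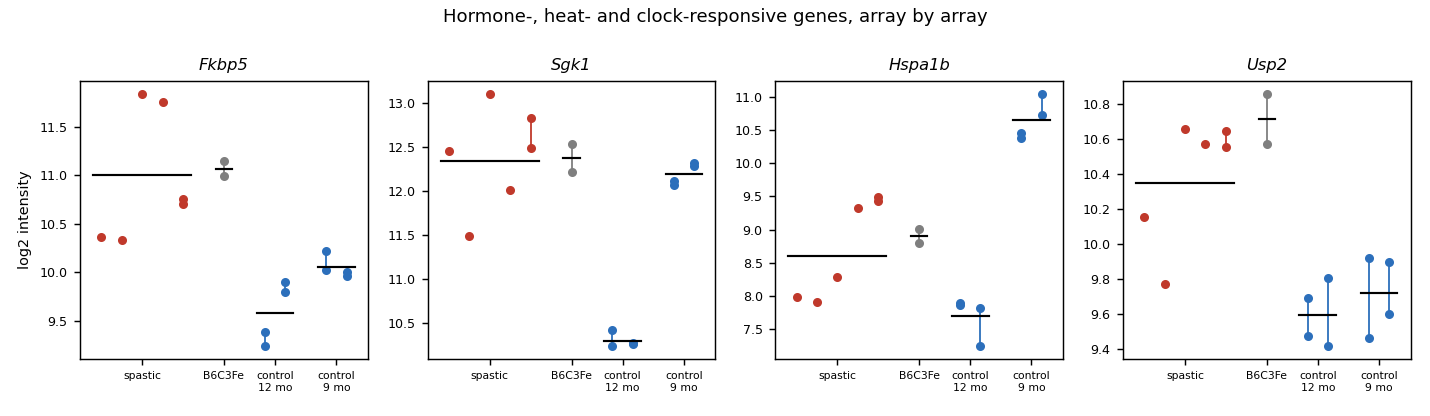
Log2 intensity of Fkbp5, Sgk1, Hspa1b and Usp2 on each array, with the controls split by age. Points are arrays, lines join arrays of one title, and bars are means of the samples. Sgk1 and Hspa1b separate the 12-month from the 9-month controls, while Fkbp5 is above all controls on every spastic array.

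Of 9 genes induced by neuronal activity or CREB, the factor through which light and synaptic input reach Per1, 8 were tested, 2 rose in spastic relative to control cord, 0 fell and 6 were not called, against 19.8% of all probe sets called and 9.83% called higher. The median difference was 0.52, beside -0.02 over all probe sets. Btg2 rose by 0.72 (SE 0.20, limma adjusted p = 0.0266) and Ier2 by 0.63 (SE 0.20, limma adjusted p = 0.0463), both of them immediate early genes. Dusp1, a phosphatase of MAP kinases, stood at 0.74 (SE 0.25, limma adjusted p = 0.0550) and was not called. Without the 2 spastic samples titled male, Btg2 was at 0.36 (limma adjusted p = 0.226) and Ier2 at 0.28 (limma adjusted p = 0.465), and with the Pcx ratio at 0.40 (limma adjusted p = 0.500) and 0.35 (limma adjusted p = 0.570). Neither was called with B6C3Fe counted as a control and log2 of age in the fit, or without the filter on dim probe sets. Against B6C3Fe, limma called 0 genes of these 5 lists in spastic cord. The smallest p-values were those of Pdk4, a kinase that restrains glucose oxidation (1.75, SE 0.55, limma adjusted p = 0.126), Cirbp (0.82, SE 0.28, limma adjusted p = 0.142), Nampt (-0.72, SE 0.27, limma adjusted p = 0.183) and Bhlhe40, a repressor at E-boxes (0.58, SE 0.22, limma adjusted p = 0.187). Nfil3, a repressor at D-boxes, stood at -0.94 (SE 0.43, limma adjusted p = 0.245), Csnk1e at 0.51 (SE 0.34, limma adjusted p = 0.427), Junb at -0.76 (SE 0.37, limma adjusted p = 0.274), Fos at 1.01 (SE 0.62, limma adjusted p = 0.386) and Hspa1a at 1.23 (SE 0.73, limma adjusted p = 0.367). Further probe sets of Nfil3 and Fos, not tested, went the other way. Their sample means in spastic and B6C3Fe cord were 7.61 and 7.23 for Nfil3, and 6.30 and 6.98 for Fos. The lists were drawn up with earlier results of these data known, and the part of hormone, temperature or activity in the clock gene levels was not tested.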

How the data were processed

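Spinal cord RNA was measured on 16 single-colour arrays. The deposited values are linear intensities; no software is named in the sources used here. Their mean, with 2% of probe sets trimmed at each end, was 800.4 to 800.5 on every array, so the authors' intensities were taken as already scaled. The median intensity per array was 289.0 to 383.6, and the floor held 14.7% to 24.1% of an array's values. The number of arrays limits the precision.

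Intensities under the 20th percentile of all values were set to it before log2 was taken, so small values understate a difference. No test used the 66 control probe sets. Names came from GEO's platform annotation: 10833 probe sets have 1 symbol, 396 several and 1193 none, and 10817 matched RefSeq by Entrez ID. Probe sets with a mean log2 above the 40th percentile of means (7.62) were tested, the highest-mean one per gene. limma 3.58.1 in R 4.3.3 (lmFit, eBayes with a trend) was fitted over 10 samples with group and titled sex, 2-sided, with Benjamini-Hochberg adjustment. In simulated data with 200 of 6427 probe sets changed, the spastic minus control fit recovered 74% of 2-fold and 99% of 4-fold changes. The 12 minus 9 month fit recovered 49% and 90%. Recovery was 32% and 87% for spastic minus B6C3Fe, and 41% and 85% for B6C3Fe minus control. In these 2 comparisons a 2-fold change would thus often not be called.

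The members, gene lists and tests were chosen with earlier results of these data known, which includes the 10 clock genes, the 5 lists of partners and cues and the cell type markers. Named genes were all members, and list genes called in either spastic comparison or else up to 3 of smallest p. Also named were the genes of the 3 highest and 3 lowest r with Arntl and with Dbp. Sgk1, Zbtb16, Mt1, Mt2, Tsc22d3, Klf9, Errfi1, Angptl4, Sult1a1, Hspa1b, Dnajb1, Per2, Npas2 and the single markers were named after their values were seen. Blood, muscle, pituitary and forebrain markers were also summed. Skeletal muscle ran from 1141 to 9789 on spastic arrays, 3878 to 4120 on B6C3Fe arrays and 4546 to 10139 on control arrays. For blood (2 genes) the sums were 8074 to 25441, 3324 to 5548 and 14869 to 19400 in that order of groups. Forebrain sums (1 gene, below the filter) were 7 to 120, 25 to 30 and 14 to 111. Pituitary sums were 1127 to 19717, 1687 to 1743 and 1188 to 3524. The highest spastic level was far above the spastic median for Gh (13.26 against 9.54) and Prl (13.06 against 7.85). For Pomc (9.41 against 8.33) and Cga (9.37 against 8.37) it was less so. Hox genes summed to 5524 to 6299, 6351 to 6429 and 5423 to 7076.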

Additional observations from a re-analysis of the deposited data

Results flagged for a closer look

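In 62 groups of samples checked for a single sample far from the others, 3 had one, where chance gives about 1 in 20. The gap to the nearest sample, as a share of the whole range of the group, was 0.805 for Per1 in spastic cord. There the second 2-month sample had 9.13 and the nearest sample 9.66. The share was 0.930 for Dbp in control cord, where the 12-month male sample had 8.83 and the nearest sample 8.54. It was 0.848 for Hspa8 in control cord, where the same 12-month male sample had 13.07 and the nearest 13.46.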

How the results depend on the processing

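Of 1220 clock gene values under the alternatives, 0 changed the sign of a called difference, 15 lost a call and 10 gained one. The spastic minus control count of clock genes, 4, was 2 with a 60th percentile filter, which dropped Clock and Rora from the test, 1 with age in the fit and B6C3Fe as a control, 1 with the Pcx ratio, 2 without the spastic samples titled male, and 4 to 5 with each sample left out, where Per3 (-0.62) joined without the 9-month female control. Dbp joined with every array (0.44) and after quantile normalization (0.56). Per1 was also lost with arrays of the letter a only (0.62). Over all probe sets that comparison called 1270. The count was 701 with age in the fit and B6C3Fe as a control, 759 with letter a only and 9 with the Pcx ratio. It was 396 without the samples titled male, and 723 to 1273 with each sample left out.

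For spastic minus B6C3Fe the clock count of 1 was 0 with letter a only, with the Pcx ratio and without the samples titled male, and 0 to 1 with each sample left out. All probe sets called, 132, became 254 with no filter, 626 with every array as a replicate, 323 with the title as a random block, 515 with the letter as a replicate block, 9 with letter a only, 49 without a trend, 11 with the Pcx ratio, 6 without the samples titled male, 206 without array a of the 9-month females, and 10 to 197 with each sample left out. For B6C3Fe minus control the clock count of 0 was 3 with every array, 3 with the letter as a replicate block and 1 with the random block. All probe sets called, 25, became 164 with no filter, 43 after quantile normalization, 520 with every array, 231 with the random block, 525 with the replicate block, 8 with letter a only, 4 without a trend, 43 without a sex term, 54 with the Pcx ratio, 9 without the samples titled male, and 4 to 26 with each sample left out. Between 12 and 9 months, 12 were called with no filter, 10 with every array, 2 with the random block and 8 with the replicate block, against 0, and between titled sexes 3 with every array and 3 without the samples titled male, against 0.

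The letter does not pair samples of different titles by any label. For Arntl each gene had 1 usable probe set, so the alternative with further probe sets was not run. Among list genes the calls of Ier2 were lost without any of 8 samples, of Btg2 without 3, and of Ddit4 and Hspa8 without 2. Fits with every array treat repeat arrays as separate samples. The causes of these changes were not tested.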
